A study of Mus musculus with 15 samples.

Results

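The 7 genes for ligands of the EGF receptor (Areg, Ereg, Hbegf, Tgfa, Btc, Epgn and Egf) and 3 genes for ErbB receptors (Egfr, Erbb2 and Erbb3) were examined in mouse ear RNA. They were chosen by name, matched exactly to the gene symbols of the deposited expression files, and make up 10 of the 21110 genes measured. The choice was made with earlier results of these data known, so counts of calls among them are not an independent test. The series compared wild-type C57BL/6 mice with mice of the same background labelled Socs3 cKO, in which Socs3 is deleted by a keratin 5-driven recombination, at 2 weeks (4 wild-type and 4 Socs3 cKO mice) and at 10 weeks (3 wild-type and 4 Socs3 cKO mice). Keratin 5 marks basal keratinocytes, so cells of the ear that do not descend from keratin 5-expressing cells keep the gene. The labels name keratinocytes as the source, but the tissue is given as ear and the RNA came from ear specimens, and skeletal muscle, macrophage and endothelial markers were detected in every group. In such bulk RNA, a change in the number of cells of a type and a change in RNA per cell cannot be told apart. Expression is given as FPKM, read counts divided by the length of the transcript and the size of the library. Levels can thus be set beside each other between genes, but this division does not correct for base composition.

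The EGF receptor, encoded by Egfr, is a receptor tyrosine kinase on basal keratinocytes. Its ligands are made as membrane-anchored precursors that are cut loose by metalloproteases, and the released growth factors drive keratinocyte proliferation and migration through the RAS-ERK cascade. Binding makes the receptor pair with itself or with ErbB2, which has no known ligand of its own, or with ErbB3, whose kinase is weak and which is bound by neuregulins. Skin is known to use amphiregulin, transforming growth factor alpha, heparin-binding EGF-like growth factor and epiregulin as autocrine growth factors, and hair follicles are sensitive to loss of the receptor or of transforming growth factor alpha.

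Ereg, Areg, Epgn and Btc lie side by side in the mouse genome. On mm9 chromosome 5 Epgn (91456490 to 91464241), Ereg (91503643 to 91522675) and Areg (91568641 to 91577458) are on the plus strand and Btc (91786287 to 91831939) on the minus strand, and these 4 were the only protein-coding genes annotated in the 375 kb that they span. Tgfa lies on chromosome 6 (86145420 to 86225151), Egf on chromosome 3 (129380493 to 129458240), Egfr and Erbb2 on chromosome 11 (16652206 to 16818161 and 98273784 to 98299030) and Erbb3 on chromosome 10 (128004579 to 128026708). Promoter sequences from RefSeq were available for 7 of the 10 genes, with none for Ereg, Hbegf and Erbb3. The promoters of 3 clustered ligands are shown because their genes differ in expression below although they are neighbours. Each runs 5′ to 3′ on the strand of the gene, in GRCm38.p6, with motif matches in capitals. The windows end at the base before the RefSeq start, chr5:91139349-91139598 for Areg and chr5:91402995-91403244 for Btc, except that of Epgn, chr5:91027267-91027463, which stops where an annotated transcript begins.
Areg: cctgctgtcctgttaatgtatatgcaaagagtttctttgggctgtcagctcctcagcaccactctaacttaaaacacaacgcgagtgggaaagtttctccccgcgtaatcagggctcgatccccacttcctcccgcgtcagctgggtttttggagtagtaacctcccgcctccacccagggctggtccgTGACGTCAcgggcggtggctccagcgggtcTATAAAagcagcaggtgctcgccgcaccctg
Epgn: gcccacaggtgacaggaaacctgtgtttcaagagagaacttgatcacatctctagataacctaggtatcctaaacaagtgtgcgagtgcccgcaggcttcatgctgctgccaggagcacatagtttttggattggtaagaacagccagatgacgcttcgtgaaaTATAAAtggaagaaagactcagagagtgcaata
Btc: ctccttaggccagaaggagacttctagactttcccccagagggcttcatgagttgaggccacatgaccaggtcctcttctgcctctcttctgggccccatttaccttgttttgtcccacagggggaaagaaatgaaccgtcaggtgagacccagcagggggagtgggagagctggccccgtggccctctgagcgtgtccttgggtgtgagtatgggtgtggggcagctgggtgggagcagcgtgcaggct
In capitals, the Areg promoter holds the cAMP response element TGACGTCA, 61 to 54 bases before the start, and TATAAA at 31 to 26 bases before it, and the Epgn promoter holds TATAAA at 86 to 81 bases before the RefSeq start. The Btc window holds neither. Among 32851 promoter windows of 250 bases in the table, searched on both strands, 1.55% held TGACGTCA and 12.4% held TATAAA. Neither an AP-1 motif (TGANTCA, in 6.75% of windows), a STAT motif (TTCNNNGAA, in 7.02%) nor an NF-kB motif (in 0.14%) was found in the windows of the 7 genes. These are matches of letters within the window and not measured binding sites.

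Several libraries stood apart and bear on the values below. Socs3 itself, the targeted gene, did not follow the labels throughout. At 2 weeks it read 9.71, 10.2, 10.3 and 10.3 FPKM in wild-type mice, against 1.25, 9.32, 12.6 and 3.51 in mice labelled Socs3 cKO, so replicates 2 and 3 of the latter lay near the wild type. At 10 weeks it read 2.76, 4.81 and 2.02 FPKM in wild-type mice and 36.5, 29.8, 47.7 and 32.4 in mice labelled Socs3 cKO, higher by 3.54 on the log2 scale (SE 0.29, adjusted p = 7.2e-05, limma). FPKM over a whole gene does not show which exons were read, and cells without recombination add to it. Each library held an estimated 11.0 to 16.3 M reads. The wild-type libraries at 10 weeks listed 1414 to 3176 genes at exactly 0 against 4044 to 4423 in all others. Libraries also differed in how expression depended on base composition: the mean log2 deviation of genes in the upper quartile of GC content less that of genes in the lower quartile was 0.67 to 0.74 in wild-type mice at 2 weeks, 0.12 to 0.58 in wild-type mice at 10 weeks, -1.94 in Socs3 cKO replicate 1 at 2 weeks and -0.39 to -0.13 in the other Socs3 cKO libraries. Fold changes with this trend removed are therefore given beside the results that they change. The contrast was above 0 in every wild-type library and below 0 in every Socs3 cKO library. Differences between libraries of this kind and differences between genotypes cannot be fully told apart. Removing the trend does not address the lower number of genes at exactly 0 in the wild type at 10 weeks.

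At 2 weeks the EGF receptor ligands changed in opposite directions in mice labelled Socs3 cKO. Areg and Tgfa fell about as strongly as Ereg rose, Btc rose to a lesser degree, and Hbegf, Epgn and Egfr did not pass the test. Genes were called at a limma adjusted p below 0.01 and an absolute log2 fold change of at least 1, with 0.1 FPKM added before logarithms, which understates the change of low genes. Of the 10 genes, 9 passed the filter on low values (Egf did not), and 4 of them were called, 2 higher and 2 lower, against 14.4% of all genes tested at this age (7.24% higher and 7.19% lower). Groups without overlap, which 5 of the 9 showed, were common, at 56.1% of all genes tested. The median log2 fold change of all genes tested was -0.21 at 2 weeks and 0.31 at 10 weeks, and it was between -0.02 and 0.06 at both ages after median-of-ratios scaling or quantile normalization. Relative to the median gene, Areg was at -2.16, Tgfa at -2.28, Ereg at 2.81 and Btc at 1.53 at 2 weeks.

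Areg encodes amphiregulin. It read 4.50, 4.47, 4.78 and 5.75 FPKM in wild-type mice at 2 weeks and 0.674, 0.911, 1.32 and 0.656 in mice labelled Socs3 cKO. Every Socs3 cKO mouse was below every wild-type mouse, and the means differed 5.48-fold. The log2 fold change was -2.37 (SE 0.24, adjusted p = 0.000287) and -3.02 with the length and GC trend removed. The Socs3 cKO values rested on an estimated 11 to 24 reads a library.

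Tgfa, which encodes transforming growth factor alpha, showed the other decrease. Wild-type mice at 2 weeks had 16.5, 14.8, 12.2 and 16.1 FPKM and mice labelled Socs3 cKO 1.63, 3.75, 2.49 and 2.76. The groups did not overlap, and the log2 fold change was -2.49 (SE 0.25, adjusted p = 0.000272). Tgfa was the most abundant ligand in wild-type mice at this age and the fourth in mice labelled Socs3 cKO. Hair shaft and inner root sheath markers moved along with Tgfa and Areg between these groups: 5 of 5 were called lower, and their summed FPKM was 1771 to 2623 in wild-type mice and 5.43 to 50.0 in mice labelled Socs3 cKO. Fibroblast markers summed to 12664 to 14859 FPKM in wild-type mice and 5107 to 7088 in mice labelled Socs3 cKO. Of these 6 markers, 3 were called lower and 1 higher. The part of these cell types in the ligand values was not tested.

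Ereg encodes epiregulin and moved the other way. It read 1.76, 1.74, 1.28 and 2.15 FPKM in wild-type mice at 2 weeks and 11.8, 8.74, 13.6 and 9.92 in mice labelled Socs3 cKO. The lowest Socs3 cKO mouse lay above the highest wild-type mouse, and the log2 fold change was 2.60 (SE 0.21, adjusted p = 0.00012). The direction held without the 2 libraries whose Socs3 lay near the wild type and with the length and GC trend removed, which gave 1.99.

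Btc encodes betacellulin, which binds both the EGF receptor and ErbB4. Its FPKM at 2 weeks was 11.1, 11.3, 7.61 and 12.1 in wild-type mice and 34.5, 25.9, 26.4 and 19.1 in mice labelled Socs3 cKO. The groups did not overlap, and the log2 fold change was 1.32 (SE 0.22, adjusted p = 0.00304). This call was lost with the length and GC trend removed, which left a log2 fold change of 0.65 (adjusted p = 0.0193), with array quality weights (0.90), and on leaving out wild-type replicate 1, 2 or 3 or Socs3 cKO replicate 3, where the adjusted p rose to at most 0.0117. It was also lost without the 2 libraries whose Socs3 lay near the wild type (1.30, adjusted p = 0.0146). Skeletal muscle markers rose beside Btc: 3 of 5 were called higher, and their sum was 602 to 916 FPKM in wild-type mice and 1418 to 2802 in mice labelled Socs3 cKO. The part of muscle in the Btc values was not tested.

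The remaining ligands did not pass the test at 2 weeks. Hbegf, encoding heparin-binding EGF-like growth factor, was tight in wild-type mice (4.41, 5.57, 5.11 and 5.04 FPKM) and scattered in mice labelled Socs3 cKO (2.32, 7.35, 6.53 and 3.11). The 2 higher values were those of replicates 2 and 3, the mice whose Socs3 lay near the wild type. The log2 fold change was -0.21 (SE 0.36, adjusted p = 0.635). Epgn, encoding epigen, read 1.70, 2.13, 2.27 and 2.91 FPKM in wild-type mice and 1.65, 0.806, 1.23 and 2.57 in mice labelled Socs3 cKO, so the groups overlapped. Its log2 fold change of -0.59 (SE 0.34, adjusted p = 0.17) became -1.44 and passed the test with the length and GC trend removed (adjusted p = 0.00488). Egf, which encodes epidermal growth factor, was near the limit of detection in all 15 libraries, with 0.223 to 0.793 FPKM and an estimated 16 to 47 reads a library. Its group means were 0.301 ± 0.00986 (SD, n = 4) and 0.397 ± 0.116 (SD, n = 4) FPKM in wild-type mice and in mice labelled Socs3 cKO at 2 weeks, and 0.551 ± 0.243 (SD, n = 3) and 0.435 ± 0.176 (SD, n = 4) at 10 weeks.

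Among the receptors, Egfr differed little at 2 weeks, with 14.8, 14.5, 12.1 and 12.1 FPKM in wild-type mice and 13.1, 17.5, 11.6 and 14.6 in mice labelled Socs3 cKO. The log2 fold change of 0.08 (SE 0.17, adjusted p = 0.689) was smaller than its error. Erbb2 had the highest level of the 10 genes in wild-type mice, 30.9, 28.8, 28.6 and 31.8 FPKM, and read 1.79, 16.0, 11.1 and 12.8 in mice labelled Socs3 cKO. The groups did not overlap (exact permutation test, two-sided p = 0.0286, the smallest that 4 against 4 mice can give), but the log2 fold change of -1.89 (SE 0.61, adjusted p = 0.0331) missed the threshold. Without Socs3 cKO replicate 1, the library with the lowest GC contrast, it was -1.18 and passed (adjusted p = 0.00012). Erbb2 transcripts are rich in GC (57.3%), and with the length and GC trend removed the log2 fold change was -0.44 and not called.

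Erbb3 followed a similar order of libraries. It read 28.0, 26.1, 16.5 and 22.8 FPKM in wild-type mice at 2 weeks and 1.14, 17.2, 7.10 and 10.7 in mice labelled Socs3 cKO, where replicate 2 lay above the lowest wild-type mouse. The log2 fold change was -1.85 (SE 0.72, adjusted p = 0.061). It was -1.06 without Socs3 cKO replicate 1, not called, and -1.18 with array quality weights, which called it (adjusted p = 0.000208). ErbB3 is also the neuregulin receptor of Schwann cells. The summed FPKM of the 4 Schwann cell markers found in the files was 304 to 334 in wild-type mice and 103 to 247 in mice labelled Socs3 cKO, with none called, and that of 5 melanocyte markers 151 to 209 and 129 to 333. Their part in Erbb3 was not tested.

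**Figure D1:**
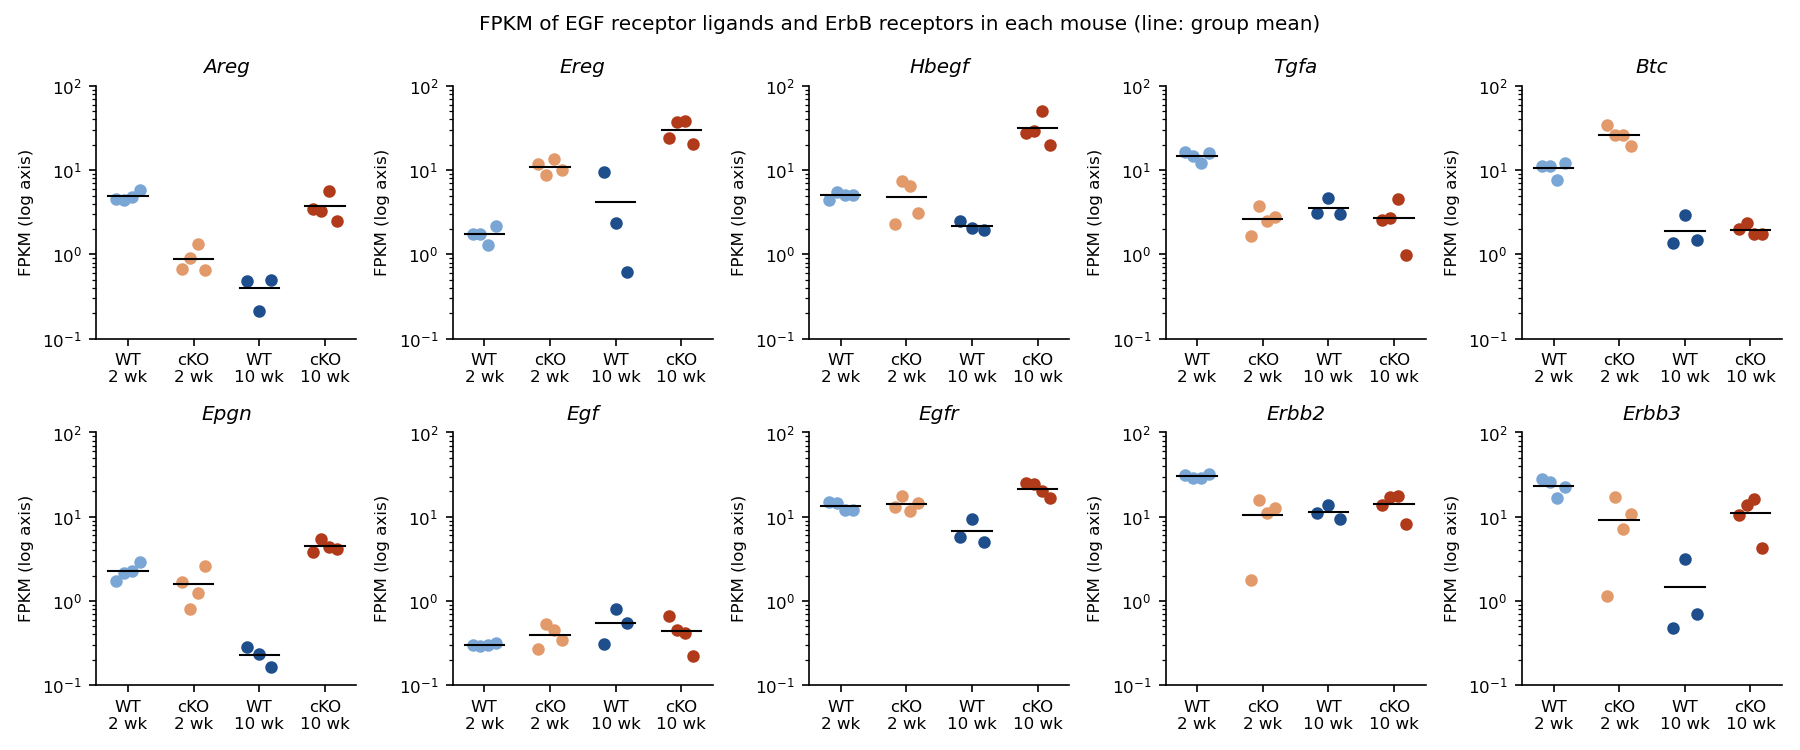
FPKM (log axis) of each of the 10 genes in each of the 15 mice, by genotype label and age, with points for mice and a line for the group mean. Areg falls to 0.656 to 1.32 in labelled cKO mice at 2 weeks, while Hbegf at 10 weeks is 19.9 to 50.1 in labelled cKO mice against 1.95 to 2.46 in wild-type mice.

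At 10 weeks the pattern was different. Mice labelled Socs3 cKO had higher Hbegf, Epgn, Ereg and Areg, and higher Egfr and Erbb3, than the wild type, while Tgfa, Btc and Erbb2 did not pass the test. Of the 9 genes that passed the filter, 6 were called, all 6 higher, against 14.9% of all genes tested (12.5% higher and 2.43% lower). Of all calls at this age 83.7% were higher, against 63.0% after median-of-ratios scaling and 54.3% after quantile normalization, and relative to the median gene the 6 lay between 1.39 (Egfr) and 3.48 (Epgn). Groups did not overlap for 6 of the 9, and for 42.3% of all genes tested. Socs3 was also higher in these mice, against their label. Areg and Epgn passed the filter through the Socs3 cKO mice alone, as both were below 1 FPKM in every wild-type mouse.

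Hbegf read 2.46, 2.05 and 1.95 FPKM in wild-type mice at 10 weeks and 27.7, 28.9, 50.1 and 19.9 in mice labelled Socs3 cKO. The lowest Socs3 cKO mouse was well above the highest wild-type mouse, and the means differed 14.7-fold. The log2 fold change was 3.74 (SE 0.28, adjusted p = 5.15e-05), and it ranged from 3.49 to 3.94 when single mice were left out.

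Epgn read 0.283, 0.236 and 0.164 FPKM in wild-type mice and 3.84, 5.40, 4.38 and 4.09 in mice labelled Socs3 cKO. Its log2 fold change of 3.79 (SE 0.26, adjusted p = 2.81e-05) was the highest of the 9. The wild-type values stood for an estimated 4 to 7 reads a library, so the size of the difference depends on the pseudocount: it was 2.14 with 1 FPKM added and 4.24 with 0.01 FPKM added, and called in both. Areg was in the same position, with 0.488, 0.213 and 0.494 FPKM and an estimated 3 to 8 reads in wild-type mice against 3.41, 3.31, 5.64 and 2.49 FPKM in mice labelled Socs3 cKO. Its log2 fold change was 2.93 (SE 0.35, adjusted p = 0.00053) and ran from 1.72 to 3.22 over the same pseudocounts.

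Ereg was uneven in wild-type mice at 10 weeks, with 9.45, 2.35 and 0.619 FPKM, and read 24.1, 37.1, 38.2 and 20.4 in mice labelled Socs3 cKO. Replicate 1 of the wild type was thus the closest to the Socs3 cKO mice without reaching them. The log2 fold change was 3.50 (SE 0.69, adjusted p = 0.00466). It lost its call with the length and GC trend removed (2.88, adjusted p = 0.0133), without a filter on low values (adjusted p = 0.0323), and without wild-type replicate 2 or 3 or Socs3 cKO replicate 2 or 3, where it ran from 2.58 to 3.47.

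Tgfa and Btc were low in both groups at 10 weeks. Tgfa read 3.06, 4.68 and 3.01 FPKM in wild-type mice and 2.58, 2.69, 4.53 and 0.979 in mice labelled Socs3 cKO, a log2 fold change of -0.55 (SE 0.44, adjusted p = 0.339). Btc read 1.36, 2.89 and 1.47 FPKM and 2.01, 2.35, 1.75 and 1.76, a log2 fold change of 0.11 (SE 0.30, adjusted p = 0.787) whose sign turned under both other scalings. The groups overlapped for both genes.

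Egfr read 5.78, 9.31 and 4.95 FPKM in wild-type mice at 10 weeks and 24.9, 24.2, 20.1 and 16.8 in mice labelled Socs3 cKO. All Socs3 cKO values were above all wild-type values, with a log2 fold change of 1.70 (SE 0.25, adjusted p = 0.00122). With the length and GC trend removed this was 0.79 (adjusted p = 0.00307), below the fold threshold. Erbb3 read 0.477, 3.17 and 0.692 FPKM in wild-type mice and 10.5, 13.7, 16.0 and 4.20 in mice labelled Socs3 cKO. The groups did not overlap, although the highest wild-type mouse was close to the lowest Socs3 cKO mouse, and the log2 fold change was 3.13 (SE 0.61, adjusted p = 0.00451). That call was lost without a filter on low values (adjusted p = 0.0301) and without wild-type replicate 1 or 3 or Socs3 cKO replicate 1, 2 or 3, where it ran from 2.64 to 3.11. The 4 Schwann cell markers summed to 77.7 to 153 FPKM in wild-type mice and 63.1 to 154 in mice labelled Socs3 cKO, and the 5 melanocyte markers to 53.5 to 81.0 and 47.1 to 113, with none called at this age. Erbb2 read 11.0, 13.7 and 9.47 FPKM against 13.7, 17.2, 17.5 and 8.21, with a log2 fold change of 0.27 (SE 0.28, adjusted p = 0.453).

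Macrophage markers, which belong to cells that can express Hbegf, Areg and Ereg, were also higher in mice labelled Socs3 cKO at 10 weeks. Their summed FPKM was 264 to 437 in wild-type mice and 622 to 1050 in mice labelled Socs3 cKO, with 4 of 6 called higher. At 2 weeks it was 218 to 249 and 332 to 687, with none of 6 called. The 6 keratinocyte markers summed to 4750 to 9507 FPKM in wild-type mice and 7512 to 11495 in mice labelled Socs3 cKO at 10 weeks, with 1 of 6 called higher. Endothelial markers, with 3 of 5 called higher, summed to 19.6 to 22.8 FPKM in wild-type and 37.4 to 57.2 in labelled Socs3 cKO mice, and fibroblast markers, with 1 of 6 called higher, to 3858 to 6812 and 6795 to 11807. The part of these cell types in the values of ligands and receptors was not tested.

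**Figure D2:**
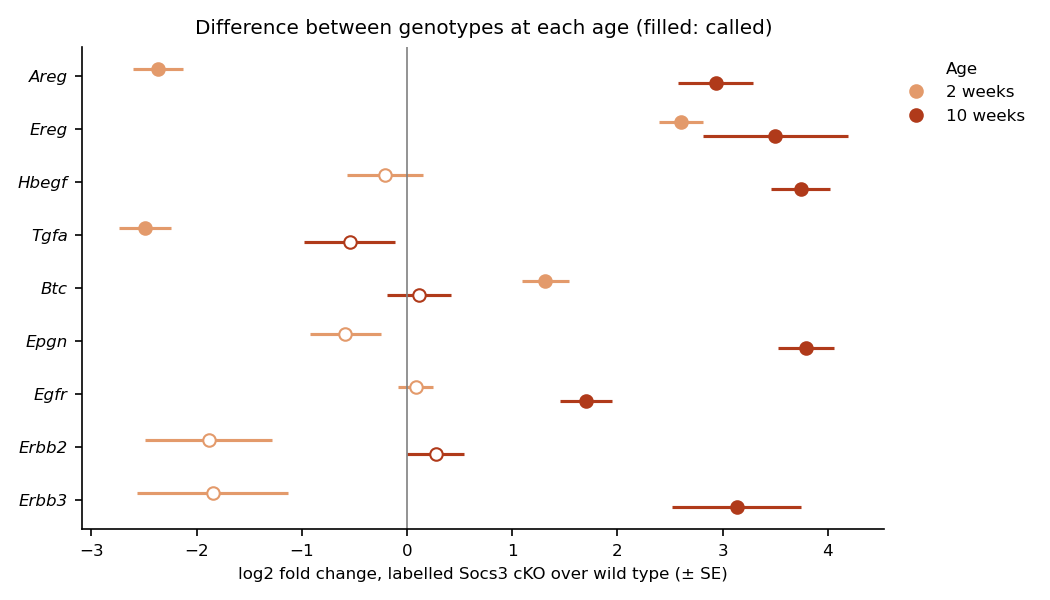
Log2 fold change of mice labelled Socs3 cKO over wild type, with its SE, for the 9 tested genes at 2 and 10 weeks (filled points passed the test). Areg is at -2.37 at 2 weeks and 2.93 at 10 weeks, Ereg is above 0 at both ages, and Tgfa and Btc pass only at 2 weeks.

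Whether the difference between genotypes itself changed with age was tested with an interaction term over the 4 groups. Of 9 genes tested, 6 were called, against 24.5% of all genes tested, where the median interaction was 0.55 and 73.3% of calls were above 0 (52.3% and 47.5% under the other scalings). Areg gave the highest value, 5.30 (SE 0.43, adjusted p = 3.05e-06), its difference turning from lower to higher. Erbb3 followed with 4.98 (SE 1.05, adjusted p = 0.0025), Epgn with 4.38 (SE 0.43, adjusted p = 1.44e-05) and Hbegf with 3.95 (SE 0.49, adjusted p = 8.87e-05). Egfr gave 1.62 (SE 0.30, adjusted p = 0.00126) and Tgfa 1.95 (SE 0.53, adjusted p = 0.00951), and both lost their calls with quantile normalization (0.97 and 1.17) and with the length and GC trend removed (0.56 and 0.89). Tgfa was not called in 18 of 26 alternatives, most of the fits without a single mouse among them. For Ereg, higher in mice labelled Socs3 cKO at both ages, no difference between the ages was detected (0.90, SE 0.79, adjusted p = 0.361). Btc (-1.20, SE 0.36, adjusted p = 0.0159) and Erbb2 (2.16, SE 0.74, adjusted p = 0.0278) did not reach the threshold, though Btc did under both other scalings (-1.66 and -1.79) and Erbb2 without Socs3 cKO replicate 1 at 2 weeks (1.45). With the length and GC trend removed the Erbb2 interaction was 0.27 (adjusted p = 0.428).

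Most of these genes fell with age in wild-type mice. From 2 to 10 weeks Erbb3 fell by 4.33 on the log2 scale (SE 0.77, adjusted p = 0.000515), Areg by 3.37 (SE 0.31, adjusted p = 2.63e-06), Epgn by 2.84 (SE 0.32, adjusted p = 1.26e-05), Btc by 2.46 (SE 0.27, adjusted p = 1.03e-05) and Tgfa by 2.05 (SE 0.39, adjusted p = 0.000835). Egfr fell by 1.03 (SE 0.22, adjusted p = 0.00189), a call lost under both other scalings and with the length and GC trend removed (-0.18), and without wild-type replicate 1 or 2 at 2 weeks or 1 or 3 at 10 weeks (-0.99 to -0.85). These 6 of 9 compare with 25.5% of all genes tested (19.4% lower), and the median gene was at -0.44. Of all calls 24.2% were higher, against 47.1% and 48.8% under the other scalings. Hbegf (-1.19, adjusted p = 0.0149) and Erbb2 (-1.41, adjusted p = 0.0421) did not reach the threshold, which both passed without Socs3 cKO replicate 1 at 2 weeks and Hbegf also without replicate 2. With the length and GC trend removed Erbb2 was at -0.068 (adjusted p = 0.796). Ereg, at 0.50 (SE 0.58, adjusted p = 0.484), followed the single high wild-type mouse at 10 weeks and turned to -0.44 without it. Hair shaft and inner root sheath markers went from 1771 to 2623 FPKM in sum at 2 weeks to 2.54 to 4.24 at 10 weeks between the same groups, and 3 of 4 Schwann cell, 3 of 5 melanocyte, 4 of 5 endothelial and 3 of 6 fibroblast markers were called lower. The fibroblast markers summed to 12664 to 14859 FPKM at 2 weeks and 3858 to 6812 at 10 weeks, and the endothelial markers to 56.7 to 66.9 and 19.6 to 22.8. Their part in these decreases was not tested.

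In mice labelled Socs3 cKO the same interval gave a mixture of directions. Hbegf rose by 2.76 on the log2 scale (SE 0.34, adjusted p = 0.00014), Areg by 1.93 (SE 0.29, adjusted p = 0.000749) and Epgn by 1.54 (SE 0.29, adjusted p = 0.0041). Btc fell by 3.66 (SE 0.25, adjusted p = 6.65e-07), the largest change of the 9 genes in this comparison. These 4 of 9 compare with 3.54% of all genes tested. The skeletal muscle markers also fell between these groups, from 1418 to 2802 FPKM in sum to 333 to 612, with 4 of 5 called lower, and in wild-type mice, where Btc fell as well, they were at 602 to 916 and 669 to 1143 FPKM. Whether muscle had a part in the fall of Btc was not tested. Ereg (1.40, adjusted p = 0.115), Egfr (0.59, adjusted p = 0.0845), Erbb2 (0.75, adjusted p = 0.339), Erbb3 (0.65, adjusted p = 0.552) and Tgfa (-0.10, adjusted p = 0.864) were not called. The comparisons by age use the same mice as those by genotype, and their values are not independent of them. Epgn lost its call without any one of Socs3 cKO replicates 1, 2 and 3 at 10 weeks or replicate 3 at 2 weeks, and without the 2 libraries whose Socs3 lay near the wild type (1.05, adjusted p = 0.0255). It was also not called after quantile normalization (1.28, adjusted p = 0.0542) and with array quality weights (0.98).

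Because a share within a library does not depend on scaling between libraries, the make-up of the ligand pool was also described. A share can still carry the trend with GC content, which differed between the genotypes. Transcripts of Ereg (39.2% GC) and Btc (40.1%) are poorer in GC than those of Areg (48.2%) and Tgfa (51.5%). The shares were not corrected for this trend. In the wild type at 2 weeks the 7 ligands summed to 39.6 ± 4.47 FPKM (SD, n = 4), of which Tgfa made up 37.6% ± 2.22, Btc 26.3% ± 2.46, Hbegf 12.8% ± 2.03 and Areg 12.4% ± 1.52. Hbegf and Areg did not differ beyond their spread. In mice labelled Socs3 cKO the sum was of the same order, 47.8 ± 6.60 FPKM (SD, n = 4), but Btc made up 54.9% ± 7.13 of it and Ereg 23.1% ± 3.70, and Tgfa only 5.71% ± 2.18. In the wild type at 10 weeks the sum was 8.26 to 17.4 FPKM, led in 2 mice by Tgfa (36.4% at most) and in replicate 1 by Ereg (54.3%). The mean share of Ereg in this group was 26.5%, and 12.6% without that replicate. In mice labelled Socs3 cKO at 10 weeks the sum was 74.9 ± 23.6 FPKM (SD, n = 4), of which Hbegf made up 41.7% ± 4.94 and Ereg 40.3% ± 4.43, with Epgn at 6.27% ± 1.68, Areg at 4.95% ± 0.57, Tgfa at 3.41% ± 1.04 and Btc at 2.81% ± 0.81. Epgn, with the highest fold change at 10 weeks, and Areg were thus small parts of the pool.

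**Figure D3:**
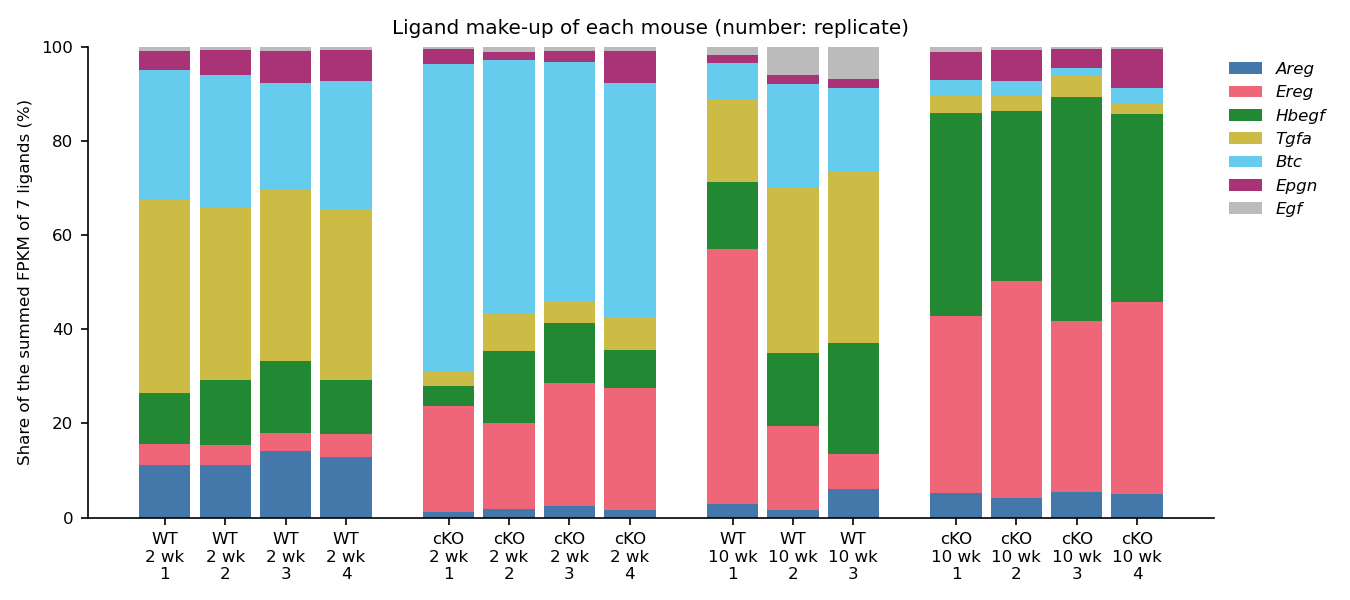
Share (percent) of each of the 7 ligands in their summed FPKM, as one stacked bar for each of the 15 mice, grouped by genotype label and age. Tgfa and Btc fill most of the wild-type bars at 2 weeks, Btc and Ereg the labelled cKO bars at 2 weeks, and Hbegf and Ereg the labelled cKO bars at 10 weeks, while wild-type replicate 1 at 10 weeks stands apart with 54.3% Ereg.

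Ranked among all genes of its own library, Hbegf at 2 weeks lay at percentiles 53.0 to 56.6 in wild-type mice and 51.0 to 64.2 in mice labelled Socs3 cKO. At 10 weeks it lay at 46.9 to 52.2 and 82.7 to 92.7 in the same order of genotypes. In that order, Ereg lay at percentiles 39.3 to 44.2 and 66.6 to 78.8 at 2 weeks. At 10 weeks its percentiles were 36.3 to 73.8 and 83.0 to 90.3. Areg lay at 53.0 to 57.6 and 36.7 to 42.4 at 2 weeks. At 10 weeks its percentiles were 27.0 to 36.0 and 49.9 to 58.9. Ranks of low genes can shift with the number of undetected genes, which was lower in wild-type libraries at 10 weeks. For receptors the order depended on the group. Erbb2 (30.0 ± 1.56 FPKM, SD, n = 4) and Erbb3 (23.3 ± 5.02) were both above Egfr (13.3 ± 1.48) in wild-type mice at 2 weeks. In mice labelled Socs3 cKO at 2 weeks Egfr (14.2 ± 2.52 FPKM, SD, n = 4), Erbb2 (10.4 ± 6.10) and Erbb3 (9.04 ± 6.73) lay within their spread. In the wild type at 10 weeks Erbb2 (11.4 ± 2.13 FPKM, SD, n = 3) led Egfr (6.68 ± 2.31) and Erbb3 (1.45 ± 1.50). In mice labelled Socs3 cKO at 10 weeks Egfr (21.5 ± 3.80 FPKM, SD, n = 4) led Erbb2 (14.2 ± 4.32) and Erbb3 (11.1 ± 5.13), the last 2 within their spread. These orders were not corrected for the trend with GC content, which differed between the genotypes. Transcripts of Erbb2 (57.3% GC) are richer in GC than those of Egfr (44.4%).

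**Figure D4:**
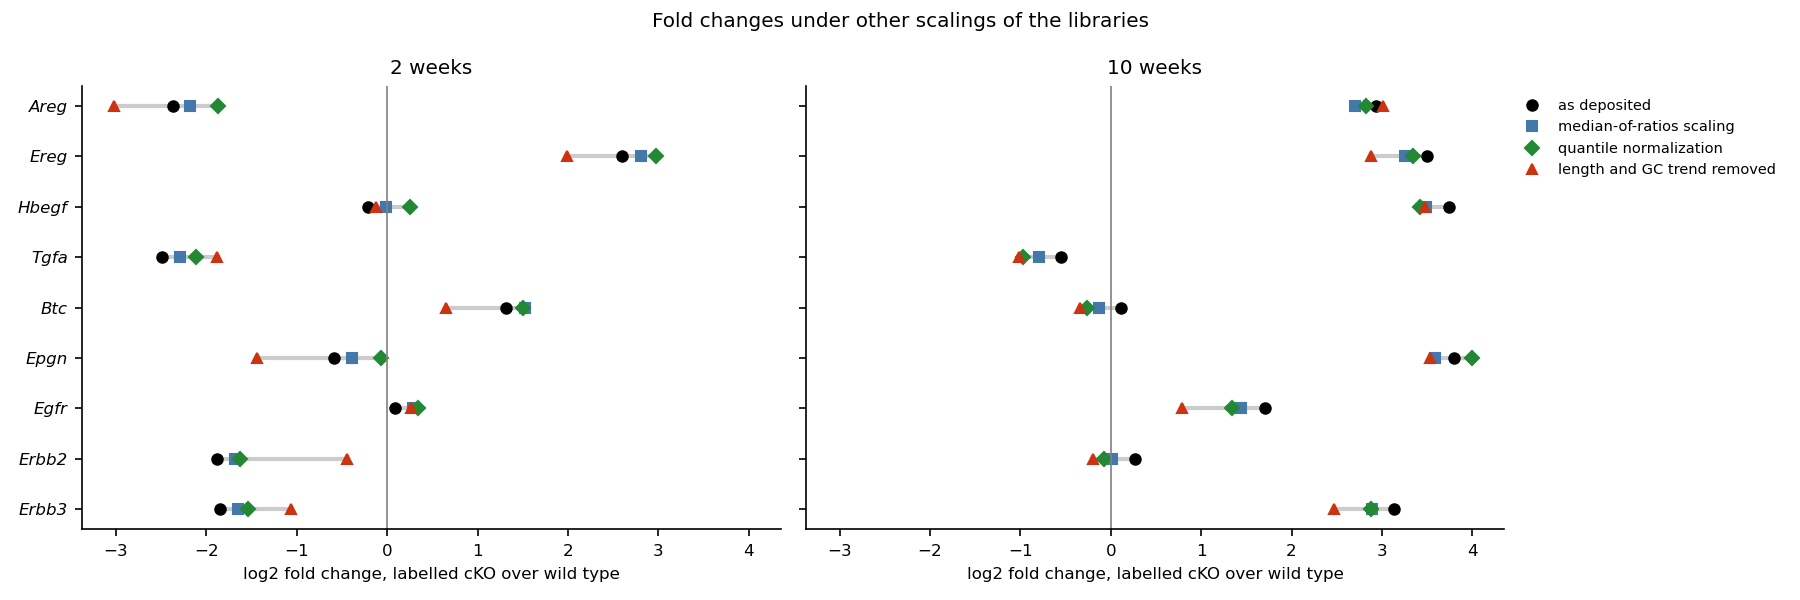
Log2 fold change of mice labelled Socs3 cKO over wild type at 2 weeks (left) and 10 weeks (right) for the 9 tested genes, from the deposited FPKM, after 2 other scalings of the libraries, and with each library's trend with transcript length and GC content removed. Erbb2 at 2 weeks moves from -1.89 to -0.44 and Egfr at 10 weeks from 1.70 to 0.79, while Hbegf at 10 weeks runs only from 3.42 to 3.74.

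The rest of the pathway was examined in lists of known components. Of the neuregulins and ErbB4, only Nrg4 passed the filter at 2 weeks and Nrg2 and Nrg4 at 10 weeks, and none was called. Erbb4 was at most at a group mean of 0.0786 FPKM, in wild-type mice at 10 weeks. Of 5 genes for ligand release, none was called at 2 weeks. At 10 weeks Adam9, a metalloprotease able to cut membrane-anchored ligands, was called higher, with 10.8 ± 3.64 FPKM (SD, n = 3) in wild-type mice and 21.8 ± 2.91 (SD, n = 4) in mice labelled Socs3 cKO. Its log2 fold change of 1.05 (SE 0.24, adjusted p = 0.00849) sat at the threshold and was not called in 11 of 18 alternatives, both other scalings among them. Rhbdf2, which encodes the iRhom2 partner of the sheddase ADAM17, and Adam9 were called in the interaction (2.16, SE 0.53, adjusted p = 0.00577, and 1.37, SE 0.33, adjusted p = 0.00505). Both calls were lost with the length and GC trend removed (0.43 and 0.77), and in 11 and 12 of 26 alternatives in all.

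Of 18 receptor adaptors and ERK cascade genes tested, none was called at 2 weeks, where their median log2 fold change was -0.53, and 4 were called at 10 weeks, all higher, where it was 0.51. All genes tested were called in 14.4% at 2 weeks and 14.9% at 10 weeks (12.5% higher). Under both other scalings and with the length and GC trend removed only Plcg1 was called at 10 weeks. Plcg1, encoding phospholipase C gamma 1, read 2.90 ± 2.84 FPKM (SD, n = 3) in wild-type mice and 14.7 ± 4.42 (SD, n = 4) in mice labelled Socs3 cKO, a log2 fold change of 2.64 (SE 0.52, adjusted p = 0.00464). It was not called without wild-type replicate 1 (2.31) or 3 (2.24), nor without Socs3 cKO replicate 1, 2 or 3 (2.53 to 2.59). Eps8, a substrate of the EGF receptor, and Braf, the kinase above MEK, were at 1.23 (SE 0.25, adjusted p = 0.00546) and 1.20 (SE 0.25, adjusted p = 0.00608), and lost their calls in 13 and 11 of 18 alternatives. With age, 4 of the 18 were called lower in wild-type mice, where 25.5% of all genes tested were called (19.4% lower), Plcg1 having fallen by 3.51 (SE 0.57, adjusted p = 0.00029), Braf by 1.56 (SE 0.23, adjusted p = 0.000119) and Eps8 by 1.50 (SE 0.21, adjusted p = 9.49e-05) among them. Braf and Eps8 were not called after quantile normalization (-0.91 and -0.86) or with the length and GC trend removed (-0.85 and -0.80), which left Plcg1 and Ptpn11, and Plcg1 alone. None of 18 was called with age in mice labelled Socs3 cKO. The interaction called 3 of 18, against 24.5% of all genes tested: Plcg1 (4.15, SE 0.78, adjusted p = 0.00132), Eps8 (1.88, SE 0.29, adjusted p = 0.000381) and Braf (1.85, SE 0.31, adjusted p = 0.000681). Eps8 was not called after quantile normalization (1.04) or with the trend removed (1.02, adjusted p = 0.0228), nor Braf after quantile normalization (0.98).

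Some negative regulators of the receptor passed the test at each age. At 2 weeks 2 of 10 were called in mice labelled Socs3 cKO, against 14.4% of all genes tested, and 0 of 10 with the replicate number as a block (adjusted p = 0.0155 for Lrig1 and 0.0107 for Socs4). Lrig1, which promotes degradation of ErbB receptors, fell from 32.5 ± 3.03 to 13.2 ± 3.43 FPKM (SD, n = 4 each), a log2 fold change of -1.33 (SE 0.22, adjusted p = 0.00279) that was -0.14 with the length and GC trend removed and was not called without any one of the 4 wild-type replicates (-1.37 to -1.28). Socs4, a SOCS protein that targets the EGF receptor, rose from 1.24 ± 0.21 to 3.71 ± 0.68 FPKM (SD, n = 4 each), a log2 fold change of 1.50 (SE 0.20, adjusted p = 0.00113). With the trend removed it was 0.93, below the fold threshold. Cbl was not called (2.50, SE 0.64, adjusted p = 0.0155), with 0.280 ± 0.0809 FPKM in wild-type and 2.67 ± 1.77 in labelled Socs3 cKO mice (SD, n = 4 each). Its wild-type values lay below the filter limit of 1 FPKM. Cbl was called higher under both other scalings, and was the only gene of this list called with the trend removed. Its interaction with age was 0.04 (SE 0.84, adjusted p = 0.969).

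At 10 weeks 5 of 10 negative regulators were called, all 5 higher in mice labelled Socs3 cKO, against 14.9% of all genes tested (12.5% higher). Under both other scalings 3 were called higher and 1, Cblc, lower, and with the length and GC trend removed 3 were called, all higher. Errfi1, the feedback inhibitor MIG6 that binds the kinase of the EGF receptor and is itself induced by it, stood at 11.1 ± 4.36 FPKM (SD, n = 3) in wild-type mice and 114 ± 24.6 (SD, n = 4) in mice labelled Socs3 cKO, a log2 fold change of 3.41 (SE 0.29, adjusted p = 9.12e-05). It was called under each of the 18 alternatives for this comparison, with 2.99 as the lowest value. Cbl, the ubiquitin ligase that marks the active receptor for degradation, was at 2.54 (SE 0.42, adjusted p = 0.00225) and Socs4 at 2.30 (SE 0.41, adjusted p = 0.0031). Cbl read 0.553 ± 0.180 FPKM (SD, n = 3) in wild-type mice and 3.98 ± 1.63 (SD, n = 4) in mice labelled Socs3 cKO. It passed the filter through the Socs3 cKO mice alone, as its wild-type values lay below 1 FPKM. Cbl lost its call without wild-type replicate 1 or 3, and Socs4 without wild-type replicate 1. With age in mice labelled Socs3 cKO, 1 of 10 was called, Errfi1, which rose by 2.41 (SE 0.26, adjusted p = 4.1e-05). In wild-type mice 4 of 10 were called lower with age, against 25.5% of all genes tested, Lrig1 having fallen by 2.34 (SE 0.21, adjusted p = 1.75e-06), Cblb by 1.53 (SE 0.33, adjusted p = 0.00197, not called without wild-type replicate 3 at 10 weeks) and Rnf41 by 1.47 (SE 0.21, adjusted p = 9.06e-05) among them. After quantile normalization and with the trend removed only Lrig1 was called, with Cblb at -0.89 and -0.79 and Rnf41 at -0.84 and -0.54. The interaction called 5 of 10, against 24.5% of all genes tested, with Errfi1 at 3.13 (SE 0.38, adjusted p = 6.34e-05), Lrig1 at 2.47 (SE 0.28, adjusted p = 4.46e-05) and Cblb at 2.27 (SE 0.45, adjusted p = 0.00184). With the trend removed 2 of 10 were called, Cblb and Errfi1, and Lrig1 was at 0.79 (adjusted p = 0.0236).

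The genes whose profile over the 15 mice was most like that of each member were found by the root mean square (RMS) difference of mean-centred log2 values among 13936 other genes. They describe likeness in these libraries, which share depth and base composition effects, and nothing more. For Areg the nearest was Clcf1, an IL-6 family cytokine gene (RMS 0.34, with means of 10.4 FPKM in wild-type and 2.37 in labelled Socs3 cKO mice at 2 weeks, then 1.35 and 8.54 at 10 weeks), followed by Nfil3 and S1pr3. For Hbegf they were Apold1, Btg2 and Icam1 (RMS 0.37 to 0.40), for Epgn Dusp5, Cd180 and S1pr3 (0.48 to 0.64), and for Ereg Serpinb2 (RMS 0.60), Ifi202b and Rel. Dusp5 encodes an ERK phosphatase, and its means were 5.96, 3.61, 0.796 and 9.65 FPKM in the same order of groups. The nearest genes of Tgfa were Pla2g4b, Lmtk3 and Sema4g (RMS 0.31 to 0.34), and those of Btc were Casq2 (RMS 0.58), Agtr2 and Myh4, of which Casq2 and Myh4 are muscle genes. Casq2 averaged 8.85, 13.7, 2.11 and 1.39 FPKM in the same order. For Egfr the nearest were Rev1, Sbf2 and Ankrd17 (RMS 0.15 to 0.19), and for Erbb3 Eif4ebp2, Zmiz1 and Ston1 (RMS 0.31 to 0.35). Among the members themselves the closest pair was Tgfa and Erbb2 (RMS 0.73), and among the 4 genes of the cluster the differences ran from 0.90 (Areg and Epgn) over 1.57 (Ereg and Epgn), 2.01 (Btc and Epgn), 2.15 (Areg with Ereg, and Areg with Btc) to 2.58 (Ereg and Btc).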

How the data were processed

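RNA of 15 mouse ears was sequenced with single reads of 50 bases from TruSeq libraries. The authors deposited 1 FPKM value per gene and library, for 21110 genes, and per the labels the tools were TopHat2 2.1.0 and Cufflinks with the mm9 genome. FPKM are not counts, so log2(FPKM + 0.1) was fitted with limma 3.58.1 (R 4.3.3, trended prior variance) on genes with at least 1 FPKM in at least 3 libraries of the fit. Each age was fitted on its own for the genotypes, and all 4 groups together for the interaction and for age. Tests were two-sided, with Benjamini-Hochberg adjustment over all genes tested, and the code was tested on simulated data. Nothing says how the mice relate to each other, so p-values measure the spread between these libraries. No 2 libraries shared more than 1 identical value above 0. Read numbers were estimated from the smallest common step of FPKM times exon length and are approximate. Lengths, GC content and mm9 positions came from GENCODE vM1, matched by symbol for 20353 genes. Named genes were the 10 members, Socs3, up to 3 called genes of each pathway list a comparison, and the 3 nearest genes of each called member. The members and lists were chosen with earlier results of these data known.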

Additional observations from a re-analysis of the deposited data

Results flagged for a closer look

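By the interaction term, the difference between genotypes changed with age in 6 of 9 genes tested, against 24.5% of all genes tested. They were Areg (5.30), Erbb3 (4.98), Epgn (4.38), Hbegf (3.95), Tgfa (1.95) and Egfr (1.62), each as the log2 fold change at 10 weeks less that at 2 weeks. Tgfa was not called in 18 of 26 alternatives. Egfr and Tgfa were not called after quantile normalization (0.97 and 1.17) or with the length and GC trend removed (0.56 and 0.89). The sign of the fold change differed between the ages for Areg, Erbb3, Epgn and Hbegf, of which only Areg was called at both ages. Erbb2 in Socs3 cKO replicate 1 at 2 weeks (1.79 FPKM) lay far below the other 3 mice of its group. Its gap to the nearest of them was 0.832 of the whole range of the group on the log2 scale, above the 95% limit of 0.829 for 4 samples. This was 1 of 30 combinations of gene and group examined, and chance gives about 1 in 20.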

How the results depend on the processing

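Over 45 fold changes of members and 1044 alternatives, 949 kept their direction and side of the threshold, 56 lost a call, 20 gained one and 19 turned in sign. Some of these alternatives cannot move a fold change, such as another filter, or leaving out Socs3 cKO mice for age in the wild type. They can change only whether it is called, and the total includes them. Turned values, of genes not called, were at 2 weeks Hbegf 0.26 (quantile) and Epgn 0.068 (array weights); at 10 weeks Btc -0.13 (median-of-ratios), -0.26 (quantile) and -0.34 (trend with length and GC removed) and Erbb2 -0.074 (quantile) and -0.20 (trend removed); in the interaction Ereg -0.15 (array weights); and with age in Socs3 cKO Tgfa 0.028 (array weights) and 0.15 (without Socs3 cKO libraries 2 and 3 at 2 weeks). The cause was not tested. Leaving out single mice gave at 2 weeks Hbegf -0.46 to 0.080 and Egfr -0.023 to 0.17, at 10 weeks Btc -0.079 to 0.44, in the interaction Ereg -0.018 to 1.85, with age in the wild type Ereg -0.44 to 1.42, and with age in Socs3 cKO Tgfa -0.40 to 0.30 and Erbb3 -0.14 to 1.13. The targeted gene Socs3, not counted among these, turned to 0.022 at 2 weeks with the trend removed.

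Mice with the same replicate number did not deviate together (r -0.06 to 0.06 at 2 weeks and -0.20 to 0.04 at 10 weeks). Mice with different numbers gave r of -0.14 to 0.09 and -0.21 to 0.16. No pairing by number was thus seen, though so few mice a group cannot exclude one. With a replicate block, Btc at 2 weeks (1.32, adjusted p = 0.0147) and Tgfa in the interaction (2.06, adjusted p = 0.0104) were not called, nor were Lrig1 and Socs4 at 2 weeks, and Hbegf with age in the wild type was (-1.30). Over all genes, calls ran from 751 (replicate block) to 3369 (array weights) around 1951 at 2 weeks, from 745 (without wild-type replicate 3) to 3180 (array weights) around 1957 at 10 weeks, from 1959 to 6199 around 3417 in the interaction, from 2205 to 5082 around 3559 with age in the wild type and from 300 to 1103 around 493 with age in Socs3 cKO. The removal of the trend with length and GC, and the fits without Socs3 cKO libraries 2 and 3, were chosen after seeing the data. Values under about 0.5 FPKM, such as Areg and Epgn in the wild type at 10 weeks, rest on few reads, and their fold changes carry that limit.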
